A study of Mus musculus with 5 samples.

Results

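The circadian clock genes of brown adipose tissue (BAT) were followed in each mouse: the activators Arntl (also called Bmal1) and Clock, the repressors Per1, Per2, Per3, Cry1 and Cry2, the nuclear receptors Nr1d1 and Nr1d2, and the output gene Dbp. They were chosen by name, as 10 of the 52022 annotated genes with transcripts in the data, and all 10 passed the count filter that left 16450 genes to test. Each of 3 ATF4 BKO and 2 WT mice gave 1 RNA library. Both genotypes carried floxed Atf4 alleles. The ATF4 BKO mice also carried Cre recombinase under the Ucp1 promoter, which is active in thermogenic adipocytes, so the other cells of the depot keep Atf4, and the WT mice had no Cre. The mice, described as male and as 10 to 12 weeks old, lived in a cycle with 12 h of light, were acclimated to 30 °C, had free access to food and spent 3 days at 4 °C. The time of day at which BAT was taken, and whether it was the same for every mouse, is not given in the sources used here.

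The clock runs in nearly every cell as a feedback loop of transcription. ARNTL and CLOCK bind E-box sequences and switch on Per, Cry, Nr1d1, Nr1d2 and Dbp. PER and CRY proteins then block ARNTL and CLOCK, while REV-ERBα and REV-ERBβ, the products of Nr1d1 and Nr1d2, repress Arntl. In mouse peripheral tissues Arntl therefore peaks at the opposite time of day from Nr1d1 and Dbp, with Nr1d1 rising before Dbp, Per transcripts following later and Cry1 later still, and in BAT REV-ERBα is known as a repressor of Ucp1. Because these levels move with the hour, the mice were described one by one as well as by genotype.

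Reads were counted by the authors per transcript with Kallisto, and estimated counts were summed per gene here. Library totals ranged from 24698337 to 32452751 estimated counts, and values are given as CPM, counts scaled to library size, here after TMM normalization. Atf4 had CPM of 32.6, 52.6 and 23.5 in ATF4 BKO replicates 1, 2 and 3 and of 286 and 226 in WT replicates 1 and 2, and the genotypes did not overlap. Its log2 difference was −2.82 (SE 0.34), with an adjusted p of 0.671 in edgeR and 9.72e-12 in DESeq2. Of the 11 brown adipocyte markers, 0 were at 0 in any mouse, and their summed level ranged from 19191 to 25611 CPM. Most of that sum was Ucp1 and Fabp4. From the lowest to the highest mouse, single markers spanned from 1.18-fold (Cidea) to 4.43-fold (Adrb3). The 16 skeletal muscle markers summed to 3.54 to 30.9 CPM in ATF4 BKO mice, against 101 and 2318 CPM in WT mice. Each marker lay below both WT values in all ATF4 BKO libraries, where 10.6% of all genes did. Xist, an RNA of the inactive X chromosome, had 4598 counts in ATF4 BKO replicate 1, a mouse described as male, and no more than 7 elsewhere. That library had 34 counts over 4 Y-linked genes, against 3284 to 4476 elsewhere, so its counts are those of a female mouse. In bulk RNA, fewer cells of a type and less RNA per cell cannot be told apart.

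The promoters of the clock genes carry short sequences by which the loop closes on itself, and those with such a match are shown, since products of other members are known to bind them. Windows of 250 bases before annotated starts were taken from RefSeq (GRCm38.p6). For 9 members there were 13 windows, and Per2 had none. The E-box CACGTG was found in 1 window each of Per1 and Cry1, 166 and 60 bases before the start, and the D-box TTATGTAA, a sequence bound by DBP and its relatives, was found at 205 and 158 bases before the start of Per3. Letters in capitals mark these matches, and each sequence reads 5′ to 3′ on the strand of its gene.
Per1, upstream start, chr11:69098699-69098948, plus strand: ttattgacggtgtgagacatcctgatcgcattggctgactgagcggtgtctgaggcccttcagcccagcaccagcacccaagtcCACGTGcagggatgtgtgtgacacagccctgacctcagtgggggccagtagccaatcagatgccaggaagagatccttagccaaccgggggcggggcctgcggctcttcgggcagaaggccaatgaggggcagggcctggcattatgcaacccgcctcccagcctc
Per1, downstream start, chr11:69099902-69100151, plus strand: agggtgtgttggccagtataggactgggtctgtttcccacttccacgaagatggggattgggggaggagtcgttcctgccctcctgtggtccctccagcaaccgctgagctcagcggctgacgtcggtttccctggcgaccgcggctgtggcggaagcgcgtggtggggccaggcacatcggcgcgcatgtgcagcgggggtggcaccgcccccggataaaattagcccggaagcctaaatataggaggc
Cry1, chr10:85185055-85185304, minus strand: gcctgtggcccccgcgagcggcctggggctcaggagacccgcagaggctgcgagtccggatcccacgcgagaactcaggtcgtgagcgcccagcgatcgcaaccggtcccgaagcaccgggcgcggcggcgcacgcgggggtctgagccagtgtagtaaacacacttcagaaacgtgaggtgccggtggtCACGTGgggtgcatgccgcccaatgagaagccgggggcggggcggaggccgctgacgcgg
Per3, chr4:151044666-151044915, minus strand: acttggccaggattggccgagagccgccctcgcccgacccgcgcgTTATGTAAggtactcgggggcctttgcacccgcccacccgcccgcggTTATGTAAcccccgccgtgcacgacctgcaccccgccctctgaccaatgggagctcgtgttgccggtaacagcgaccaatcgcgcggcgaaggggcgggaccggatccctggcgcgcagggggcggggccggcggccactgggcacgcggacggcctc
The second Per1 window holds no match and is shown because both Per1 starts are compared below. Searched on both strands, CACGTG was in 6.02% of all 32851 windows of this length and TTATGTAA or TTACGTAA in 0.931%. The cyclic AMP response element TGACGTCA was in 1.55% of windows and a REV-ERB response element in 0.332%, and neither was in a window of a member. A match describes letters, not binding. Only these letter patterns within the 250 bases were searched, so a window without a match does not show that its gene lacks such a site.

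Between genotypes, none of the 10 clock genes passed the test. Dbp had the largest fitted log2 difference, 0.65 higher in ATF4 BKO mice, and Cry1 the lowest, at −0.14. The edgeR quasi-likelihood test called 0 of 10 members at a Benjamini-Hochberg adjusted p under 0.05, where it called 0.00608% of all genes tested, and DESeq2 called 0 of 10, where it called 0.736%. At an unadjusted p under 0.05, edgeR had 0 of 10 members, against 5.23% of all genes. The deleted gene Atf4 was not called by edgeR either (adjusted p = 0.671), while DESeq2 called it. A missing edgeR call therefore does not show that a gene is unchanged. The ATF4 BKO and WT values of all 10 members overlapped: 0 of 10 lay below both WT values in each knockout, against 10.6% of all genes, and 0 of 10 lay above both, against 8.95%. Fitted differences were higher in ATF4 BKO mice for 8 members and lower for 2, with a median of 0.21 beside 0.0077 over all genes. On the scale of log2(TPM + 1), where TPM are scaled for transcript length and all genes had a median of −0.12, the members' median was −0.076. Without ATF4 BKO replicate 2 it was 0.034 and without ATF4 BKO replicate 1 it was 0.36. File names carry 1 of 2 prefixes of unstated meaning: within the first (ATF4 BKO replicates 1 and 2, WT replicate 1) the median was 0.0092 with 5 members higher and 5 lower, and within the second (ATF4 BKO replicate 3, WT replicate 2) it was 0.31 with 6 higher and 4 lower. With 2 WT mice, an exact permutation test of a single gene cannot go below p = 0.1 (one-sided).

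**Figure D1:**
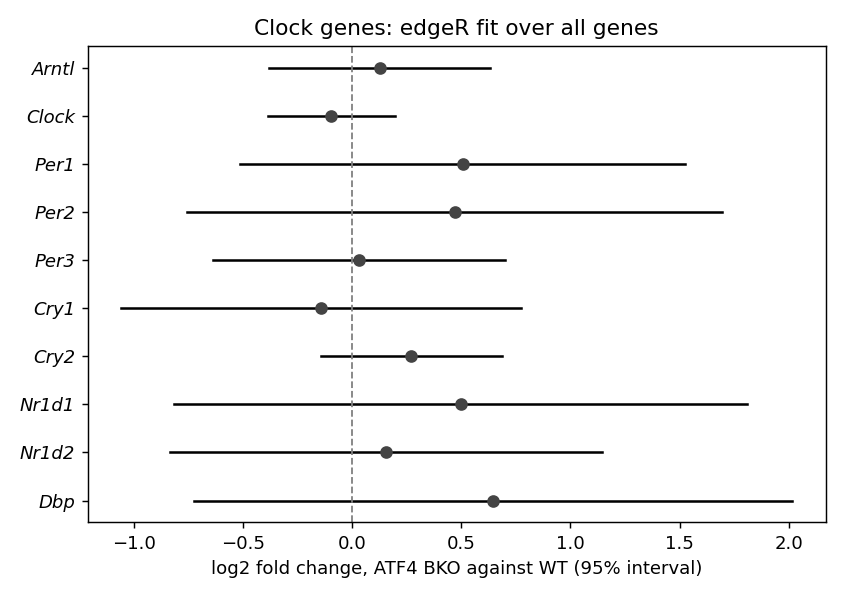
Fitted log2 fold change of each clock gene, ATF4 BKO against WT (x axis; points are edgeR estimates, lines their 95% intervals), with genes on the y axis. All 10 intervals include 0; on TPM scales the signs of Arntl, Per3, Cry2 and Nr1d2 turn, with library totals alone that of Per3, and with length-scaled counts that of Cry1.

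Of the activators, Clock, whose product is the partner of ARNTL, was the steadiest member. Clock had CPM of 53.9, 55.6 and 57.4 in the ATF4 BKO mice and of 55.8 and 63.2 in the WT mice. WT replicate 2 was highest and the other mice lay close together, so that the highest level was 1.17 times the lowest. The log2 difference was −0.10 (SE 0.12, 95% interval −0.39 to 0.19, edgeR adjusted p = 0.945). WT replicate 2 also had by far the most muscle transcripts, whose part in its Clock level was not tested, and without it the difference was −0.02.

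Arntl, the other activator, had CPM of 20.0, 20.9 and 24.1 in ATF4 BKO mice and of 16.0 and 23.7 in WT mice. The WT mice enclosed all ATF4 BKO values except that of replicate 3, and the mean was 21.7 ± 2.16 (SD, n = 3) against 19.9 ± 5.43 (SD, n = 2). The log2 difference was 0.13 (SE 0.21, 95% interval −0.38 to 0.63, edgeR adjusted p = 0.963). It fell to −0.11 without WT replicate 1, the mouse with the lowest Arntl, and to −0.094 on log2(TPM + 1).

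Per1 and Per2, repressors whose proteins gather in the complex that silences CLOCK and ARNTL, varied more. Per2 had CPM of 16.9, 44.1 and 48.1 in ATF4 BKO mice and of 35.0 and 17.6 in WT mice. ATF4 BKO replicate 1 and WT replicate 2 were low and nearly alike, and the other three mice were high. Per1, at 47.0, 120 and 115 CPM in ATF4 BKO mice, against 77.7 and 54.7 CPM in WT mice, was lowest in the same pair of mice, and its WT values lay inside the ATF4 BKO range. The log2 difference was 0.51 for Per1 (SE 0.42, 95% interval −0.51 to 1.53, edgeR adjusted p = 0.934), and ranged from 0.26 without WT replicate 2 to 0.83 without ATF4 BKO replicate 1. That of Per2 was 0.47 (SE 0.50, 95% interval −0.76 to 1.69, edgeR adjusted p = 0.942), and it was 0.039 without WT replicate 2 and 1.06 without WT replicate 1. These intervals include both no difference and a doubling.

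Per3, the least abundant Per gene per length with a mean of 5.66 TPM beside 22.8 for Per1, was also lowest in ATF4 BKO replicate 1 and WT replicate 2. Its CPM were 15.4, 21.7 and 27.8 in ATF4 BKO mice, against 24.0 and 18.4 in WT mice. ATF4 BKO replicate 3 was highest, and the group means of 21.7 ± 6.24 (SD, n = 3) and 21.2 ± 3.99 (SD, n = 2) nearly coincided. The log2 difference was 0.03 (SE 0.27, 95% interval −0.64 to 0.70, edgeR adjusted p = 0.990). Its direction was lower in ATF4 BKO mice with library totals alone (−0.071) and on log2(TPM + 1) (−0.086).

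Per1 transcripts from different starts varied unequally, a comparison chosen after the values were seen. Per1-201 starts at chromosome 11 position 69098948, right after the window with the E-box, and had TPM of 1.16, 9.52 and 13.5 in ATF4 BKO mice and of 7.10 and 1.84 in WT mice. Per1-206 starts at position 69100158, after the second window, and had TPM of 6.95, 16.7 and 9.16 in ATF4 BKO mice and of 8.61 and 11.2 in WT mice. ATF4 BKO replicate 1 and WT replicate 2 were thus lowest for Per1-201 but WT replicate 2 was second highest for Per1-206. The highest TPM was 11.6 times the lowest for Per1-201 and 2.40 times for Per1-206. Per1-202, which starts at position 69095217, lay between, at 2.55 times. Per1-203, which starts at position 69100522, was low but ranged more widely than any of these. It had 0.971, 0.890 and 0.0108 TPM in ATF4 BKO mice and 2.20 and 0.00368 TPM in WT mice. The split is Kallisto's estimate: 57 words of 31 bases set Per1-201 apart from the other Per1 transcripts and 0 set Per1-206 apart. The level of Per1-206 is therefore uncertain, and the size of the error of these values was not estimated here.

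**Figure D2:**
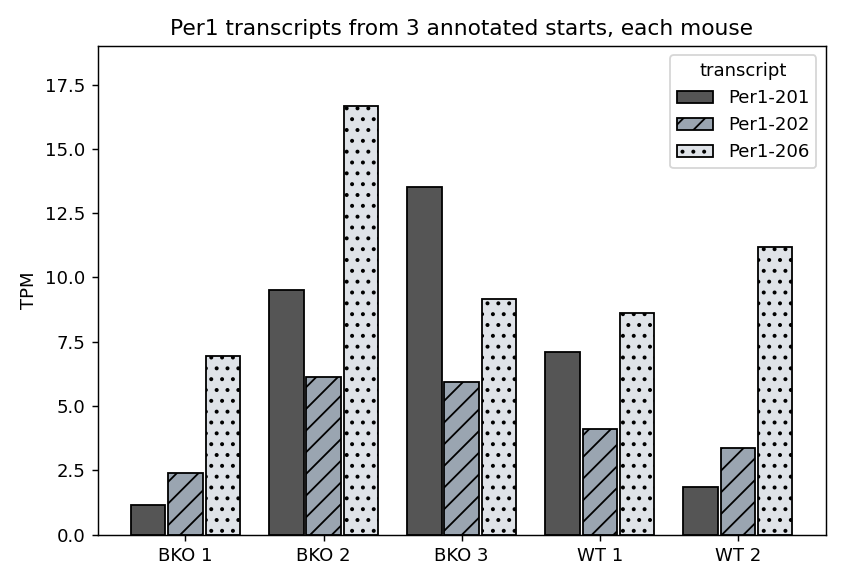
Level of 3 Per1 transcripts (y axis, TPM as deposited) in each mouse (x axis); bars are single libraries without error bars. Per1-201 ranged from 1.16 TPM in ATF4 BKO replicate 1 to 13.5 TPM in ATF4 BKO replicate 3, while Per1-206 ranged from 6.95 to 16.7 TPM.

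The cryptochromes are the direct repressors of CLOCK and ARNTL. Cry1 had CPM of 14.6, 17.2 and 34.4 in ATF4 BKO mice and of 26.0 and 22.7 in WT mice. The ATF4 BKO mice lay on both sides of the WT mice, with replicate 3 highest, and the log2 difference was −0.14 (SE 0.38, 95% interval −1.06 to 0.77, edgeR adjusted p = 0.977). It was −0.61 without ATF4 BKO replicate 3, 0.081 without ATF4 BKO replicate 1, 0.026 without ATF4 BKO replicate 2 and 0.010 with length-scaled counts. Cry2 had CPM of 28.3, 31.5 and 37.6 in ATF4 BKO mice and of 28.9 and 24.9 in WT mice. Only ATF4 BKO replicate 1 lay among the WT values. Its log2 difference of 0.27 (SE 0.17, 95% interval −0.14 to 0.69, edgeR adjusted p = 0.920) had the smallest adjusted p among the members and was −0.067 on log2(TPM + 1).

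Nr1d1 had the highest level per length of the members, with a mean of 43.8 TPM, and the widest range. Its CPM were 78.6, 159 and 45.9 in ATF4 BKO mice, against 47.7 and 85.9 in WT mice. ATF4 BKO replicate 2 stood far above the rest, and the other ATF4 BKO mice fell close to one WT mouse each. The log2 difference was 0.50 (SE 0.54, 95% interval −0.81 to 1.81, edgeR adjusted p = 0.942), and it was −0.083 without ATF4 BKO replicate 2. Nr1d1 overlaps the opposite-strand gene Thra over 263 exon bases, and 7.85% of its 31-base words occur in another gene on either strand. The library kit kept strand, and whether the counting used it is not given in the sources used here.

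Nr1d2, which encodes the second REV-ERB receptor, had CPM of 29.0, 67.5 and 28.3 in ATF4 BKO mice and of 37.1 and 37.6 in WT mice. ATF4 BKO replicate 2 was again highest, and the other ATF4 BKO mice were lower than both WT mice. The log2 difference of 0.16 (SE 0.40, 95% interval −0.83 to 1.14, edgeR adjusted p = 0.977) was −0.37 without ATF4 BKO replicate 2 and −0.13 on log2(TPM + 1). Of its 31-base words, 9.51% occur in another gene.

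Dbp, a PAR bZIP factor that carries clock time to metabolic genes, had 152, 626 and 225 counts in ATF4 BKO mice, against 214 and 299 in WT mice. In CPM these were 6.71, 22.3 and 7.58 against 6.77 and 8.82. ATF4 BKO replicate 2 was the sole mouse far from the others, and the log2 difference of 0.65 (SE 0.56, 95% interval −0.72 to 2.02, edgeR adjusted p = 0.936) was −0.11 without it. The same mouse was highest for the summed protein-coding Dbp transcripts, at 3.75, 18.0 and 4.52 TPM in ATF4 BKO mice, against 4.59 and 7.35 TPM in WT mice. Transcripts annotated as retaining an intron varied less in sum, at 3.54, 5.05 and 2.96 TPM and at 3.10 and 3.22 TPM. Most of that sum was Dbp-202, which 0 words of 31 bases set apart from the other Dbp transcripts. Dbp-205, which 785 words set apart, had 0.680, 2.19 and 0.861 TPM in ATF4 BKO mice and 0.481 and 1.17 TPM in WT mice. It was thus also highest in ATF4 BKO replicate 2, and its highest TPM was 4.56 times its lowest. Dbp and the opposite-strand gene Sphk2 share 539 exon bases and 16.9% of the 31-base words of Dbp occur in another gene on either strand, so reads from that stretch cannot be told apart unless the counting used strand.

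**Figure D3:**
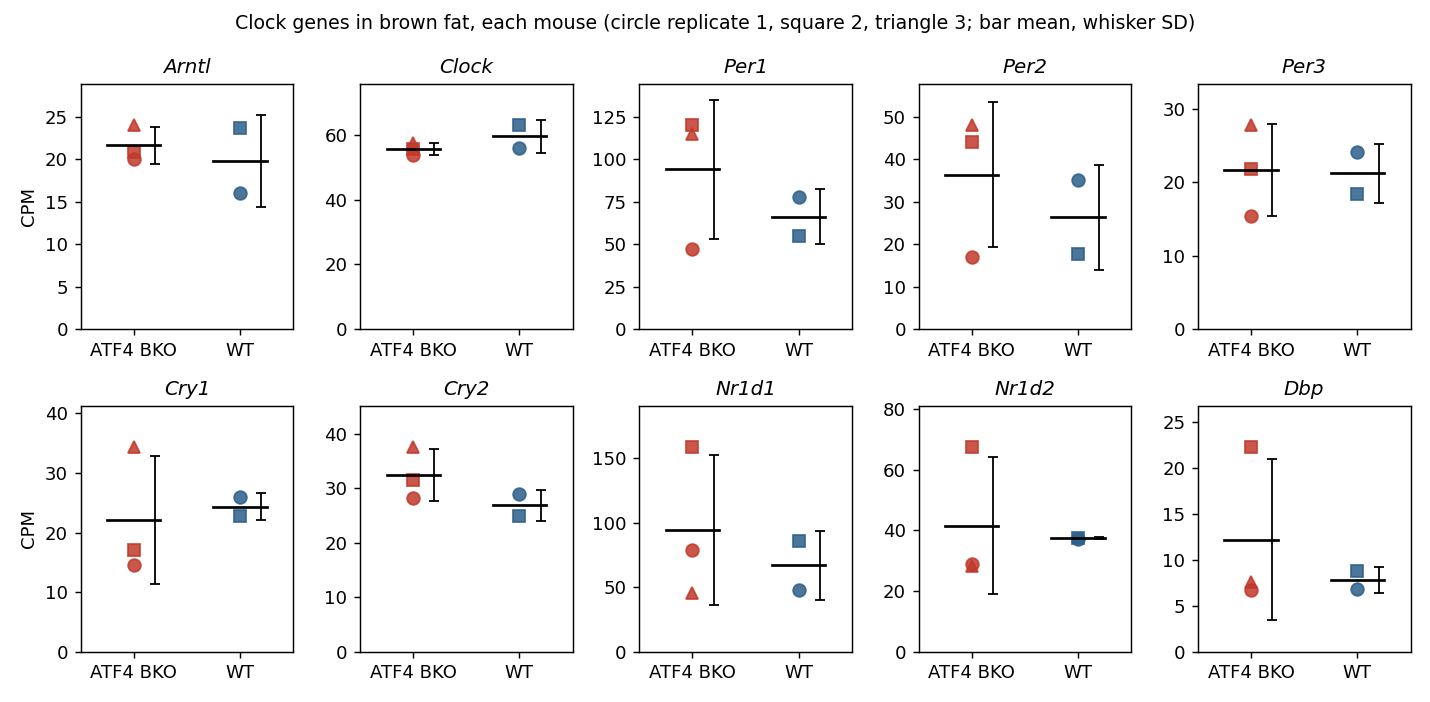
CPM of each clock gene (y axis from 0, 1 panel per gene) in ATF4 BKO and WT mice (x axis); symbols are single mice, bars group means and whiskers SD. The genotypes overlap in every panel, and ATF4 BKO replicate 2 is highest for Per1, Nr1d1, Nr1d2 and Dbp.

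The members differed between mice of 1 genotype more than most genes did. The SD of log2 CPM within genotypes had a median of 0.56 over the members and of 0.25 over all genes tested. Nr1d1 lay at the 91.4th percentile of all genes for this SD, Per2 and Dbp both at the 90.9th, Per1 at the 86.6th, Nr1d2 at the 83.3rd and Cry1 at the 80.7th. Per3 lay at the 68.5th, Arntl at the 50.7th, Cry2 at the 35.7th and Clock at the 6.55th. From the lowest to the highest mouse, Nr1d1 spanned 3.46-fold, Dbp 3.32-fold, Per2 2.84-fold, Per1 2.56-fold, Nr1d2 2.39-fold and Cry1 2.35-fold. Clock, whose transcript is known to change little over the day, had the lowest spread.

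**Figure D4:**
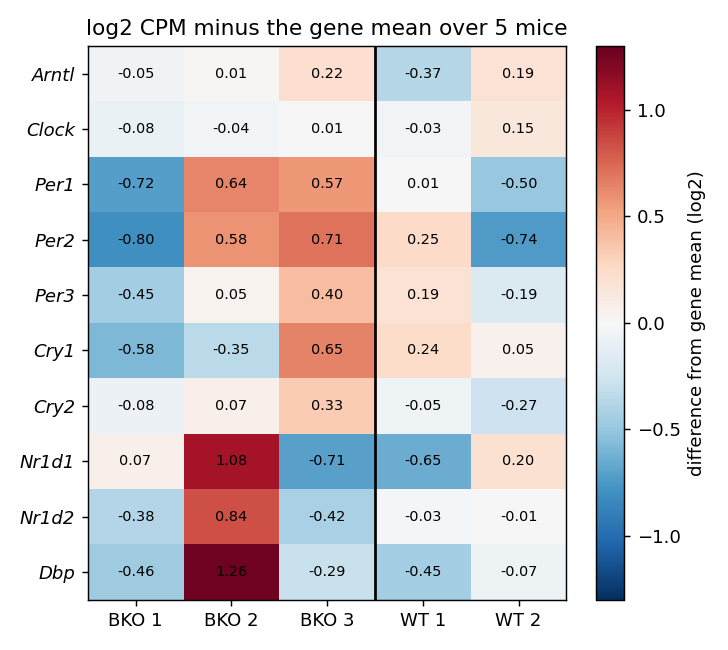
Log2 CPM of each clock gene (rows) minus its mean over the 5 mice, in each mouse (columns); red is above and blue below the gene's mean. ATF4 BKO replicate 2 is raised for Nr1d1 (1.08), Nr1d2 (0.84) and Dbp (1.26), and ATF4 BKO replicate 1 and WT replicate 2 are low for Per1 and Per2.

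The closest 2 pairs of mice in these genes were of opposite genotype. The root mean square difference of log2 CPM over the 10 members was 0.313 between ATF4 BKO replicate 1 and WT replicate 2, and 0.375 between ATF4 BKO replicate 3 and WT replicate 1. The other 4 pairs of opposite genotype differed by 0.589, 0.731, 0.818 and 0.878. Within genotypes it was 0.517 for the WT pair and between 0.839 and 0.976 for the 3 ATF4 BKO pairs. Over all genes tested, the same 2 cross-genotype pairs differed by 0.740 and 0.774, the WT pair by 0.783 and the ATF4 BKO pairs by between 0.600 and 0.692. These distances are a description without a test.

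The arms of the loop were set against each other in each mouse. The mean log2 CPM of Arntl and Clock was subtracted from that of Nr1d1, Nr1d2, Dbp, Per1, Per2 and Per3. The difference was −0.46, 0.69 and −0.13 in ATF4 BKO mice, against 0.02 and −0.45 in WT mice. The value was highest in ATF4 BKO replicate 2 and lowest in ATF4 BKO replicate 1 and WT replicate 2. In ATF4 BKO replicate 1, Arntl and Clock lay at −0.05 and −0.08 from their own means on the log2 scale, and in WT replicate 2 at 0.19 and 0.15. In ATF4 BKO replicate 2 they lay at 0.01 and −0.04, near their means. WT replicate 1 had the lowest Arntl, at −0.37, together with low Nr1d1, at −0.65. The mean of Arntl and Clock spanned 4.91 to 5.28, and that of the other arm 4.59 to 5.78. The value is therefore no measure of clock time. Since the value sets levels of different genes against each other, only its differences between mice can be read. The means were 0.03 ± 0.59 (SD, n = 3) and −0.22 ± 0.34 (SD, n = 2). Their difference of 0.25 was less than the SD within either group, and leaving out 1 mouse gave −0.08 (ATF4 BKO replicate 2), 0.0098 (WT replicate 2), 0.49 (WT replicate 1), 0.33 without the knockout replicate 3 and 0.49 without the knockout replicate 1.

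Within the Nr1d1, Dbp and Per arm the mice also differed in order, which was noticed after the values were seen. The ratio of Nr1d1 to Per2 in CPM was 4.65, 3.60 and 0.953 in ATF4 BKO mice, against 1.36 and 4.88 in WT mice. Each genotype thus had mice with high ratios (replicates 1 and 2 of ATF4 BKO, replicate 2 of WT) and a mouse with a low one. All 3 mice with high ratios also had the highest summed level of the 6 macrophage markers, at 259, 477 and 351 CPM, against 154 and 94.0 CPM in the mice with low ratios. The part of macrophages in the ratio was not tested. Dbp minus Arntl in log2 CPM set apart ATF4 BKO replicate 2 alone, at 0.09 against −1.57 and −1.66 in the other ATF4 BKO mice and −1.23 and −1.42 in the WT mice.

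**Figure D5:**
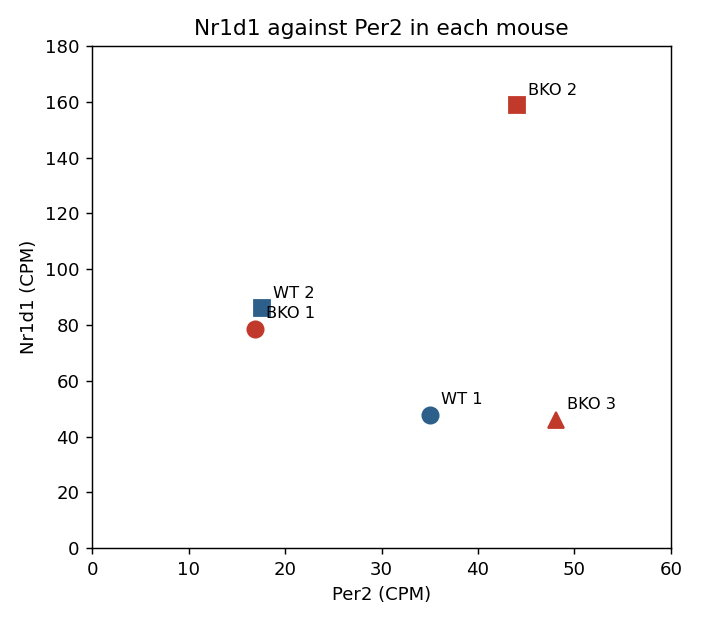
Nr1d1 (y axis, CPM) against Per2 (x axis, CPM) in each mouse; red symbols are ATF4 BKO and blue WT. ATF4 BKO replicate 1 and WT replicate 2 sit together at 16.9 and 17.6 CPM of Per2, and ATF4 BKO replicate 2 has 159 CPM of Nr1d1.

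Further genes of the clock were read from a list of 22, all tested. Of these, 12 were lower and 10 higher in ATF4 BKO mice, with a median log2 difference of −0.054 beside 0.0077 over all genes. The median was 0.040 without WT replicate 1, −0.026 without ATF4 BKO replicate 1, 0.056 with length-scaled counts and −0.17 with library totals alone. edgeR and DESeq2 each called 0, and 0 had an unadjusted p under 0.05. Fbxw11 and Gsk3b, which act in PER protein turnover and clock kinase signalling, were below both WT mice in every ATF4 BKO mouse, and Hdac3, a co-repressor used by REV-ERB, was above both. That is 2 and 1 of 22, where the shares over all genes were 10.6% and 8.95%. Hdac3 had a log2 difference of 0.035, and its highest level was 1.04 times its lowest. Gsk3b had CPM of 53.8, 51.1 and 48.9 against 76.0 and 56.5, with a log2 difference of −0.37 (SE 0.16, edgeR adjusted p = 0.911).

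Several of these genes moved between mice like the members. Tef, a relative of Dbp, had CPM of 79.6, 153 and 199 in ATF4 BKO mice and of 120 and 84.3 in WT mice. Usp2, a deubiquitinase with clock-driven transcription, had 37.9, 59.7 and 78.7 against 49.5 and 34.8 CPM. Both were lowest in ATF4 BKO replicate 1 and WT replicate 2, the mice with low Per1 and Per2. Ciart, a repressor of the loop, had CPM of 3.18, 12.9 and 6.57 in ATF4 BKO mice and of 5.63 and 5.96 in WT mice, highest in ATF4 BKO replicate 2. Bhlhe40, which competes for E-boxes, ran otherwise, at 131, 44.0 and 34.9 CPM against 95.2 and 46.8 CPM. Npas2, a stand-in for Clock, was low in all mice, between 1.87 and 5.72 CPM.

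Genes that the clock is known to drive gave no call either. Of 7 such outputs, 4 were higher and 3 lower, with a median log2 difference of 0.021, which was −0.18 without WT replicate 2, −0.076 without ATF4 BKO replicate 2 and −0.15 on log2(TPM + 1), and edgeR and DESeq2 each called 0. Nampt, the rate-limiting enzyme of NAD salvage, had CPM of 214, 361 and 394 against 282 and 263. Klf9, a transcription factor, had CPM of 124, 220 and 193 against 128 and 145. Both were highest in ATF4 BKO replicates 2 and 3, the mice with the highest Per1 and Per2, and the genotypes overlapped.

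Glucocorticoids reset clocks in peripheral tissue and act directly on Per1, so 4 responsive genes were set beside the members. All 4 were higher in ATF4 BKO mice, with a median log2 difference of 0.86. It was 0.11 without ATF4 BKO replicate 2 and 0.35 on log2(TPM + 1). Of them edgeR and DESeq2 called 0, and Sgk1, which lay above both WT mice in every ATF4 BKO mouse, was the 1 with an unadjusted edgeR p under 0.05. That is 1 of 4 for each measure, where the shares over all genes were 8.95% and 5.23%. Fkbp5, a co-chaperone of the glucocorticoid receptor, had CPM of 7.91, 67.1 and 20.4 in ATF4 BKO mice and of 16.3 and 14.5 in WT mice. Zbtb16, a transcription factor, had 9.58, 105 and 18.6 against 18.4 and 25.9 CPM. Both were highest in ATF4 BKO replicate 2, the mouse with the highest Nr1d1, Nr1d2 and Dbp, and lowest in ATF4 BKO replicate 1. Their part in the levels of the members was not tested.

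Heat shock and cold-inducible genes respond to temperature, which also sets clocks, and of 9 such genes 7 were lower and 2 higher in ATF4 BKO mice, with a median log2 difference of −0.20 and 0 calls by edgeR or DESeq2. At an unadjusted p under 0.05, edgeR had 0 of the 9, against 5.23% of all genes. DESeq2 had 2, Hsp90aa1 and Cirbp, where it had 953 of the 16450 genes tested. The median was 0.094 without WT replicate 1, −0.042 without ATF4 BKO replicate 1, −0.35 without ATF4 BKO replicate 2 and without WT replicate 2, and −0.39 on log2(TPM + 1). Cirbp, a cold-inducible RNA-binding protein, had CPM of 14.0, 20.3 and 14.5 in ATF4 BKO mice, all above its 12.2 and 10.7 CPM in WT mice. Rbm3, another cold-inducible RNA-binding protein, ran otherwise, at 43.5, 90.9 and 57.7 CPM in ATF4 BKO mice, against 95.4 and 54.6 CPM in WT mice. The genotypes overlapped for Rbm3, and its log2 difference was −0.23. Hsp90aa1 lay below both WT mice in every ATF4 BKO mouse, though ATF4 BKO replicate 1 and WT replicate 2 were at 489 CPM each. That is 1 of 9 above both WT mice and 1 of 9 below, where the shares over all genes were 8.95% and 10.6%.

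The genes whose pattern was nearest to those of Dbp and Arntl were found by the root mean square difference of centred log2 CPM over the 5 libraries, among 10471 genes with a mean of at least 5 CPM. Nearest to Dbp were Plk3 (0.0772), Tmem140 (0.0902), Sdc1 (0.121), Cblb (0.136) and Uap1l1 (0.152). All 5 were highest in ATF4 BKO replicate 2. Nearest to Arntl were Cep85l (0.0251), Acvr1c (0.0332), Msrb1 (0.0411), Rarb (0.0536) and Plekhf2 (0.0541), all lowest in WT replicate 1. Among all 16449 other genes tested, Nr1d2 ranked 58, Ciart 140 and Nr1d1 212 in nearness to Dbp, while Per2 ranked 9386 and Cry1 14258. With 5 libraries, such nearness describes these mice alone.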

How the data were processed

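BAT RNA of 3 ATF4 BKO and 2 WT mice was prepared by the authors as stranded mRNA libraries. The authors deposited estimated counts per transcript from Kallisto 0.45.0 with build mm10 (submitters' processing notes), not normalized between mice, and TPM, which are scaled for transcript length and library size. The transcript annotation is not given in the sources used here. Of 141450 transcripts, 138191 matched GENCODE M21 (GRCm38); estimated counts were added up over the transcripts of a gene and rounded. No pair of libraries within a genotype was a repeat deposit of 1 library (chi-square per degree of freedom of at least 47.7).

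Genes reaching 10 counts in 2 or more mice entered the test with edgeR 4.0.16 in R 4.3.3 (TMM, quasi-likelihood test, Benjamini-Hochberg adjustment over 16450 genes, threshold 0.05). DESeq2 1.42.0 and limma 3.58.1 on log2(TPM + 1) and log2(TPM + 0.1) were alternatives, beside other scalings, a lower filter, length-scaled counts, blocks and leaving out each mouse. The log2 CPM used a prior count of 2. Each library is labelled as its own replicate. The edgeR p-values set the genotype difference against the spread between libraries within genotypes, which the fit moderates across genes.

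The members and gene lists were chosen with earlier results of these data known. Named genes were the members, the fixed lists, Atf4, overlapping genes and the 5 genes nearest to Dbp and to Arntl. The Nr1d1 to Per2 ratio and the Per1 and Per3 transcript comparisons were chosen after the values were seen. Promoter windows came from RefSeq (GRCm38.p6), and motifs were searched on both strands. A withheld item is not reported here.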

Additional observations from a re-analysis of the deposited data

Results flagged for a closer look

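ATF4 BKO replicate 1, a library described as male, held 4598 counts of Xist, an RNA of the inactive X chromosome, where the other libraries held at most 7. It drew attention because this gene takes no part in the comparisons. The same library had 34 counts over 4 Y-linked genes, against 3284 to 4476 in the others. These counts are those of a female mouse, at odds with the description. The part of sex in the levels of this mouse was not tested. Without this mouse the members' median log2 difference was 0.36, and the members' direction changed for Cry1, from −0.14 to 0.081.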

How the results depend on the processing

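Over 16 alternatives, 134 of 160 values of the members kept their direction and 0 were called; adjusted p ranged from 0.496 upwards. Genes called, 1 with edgeR, were 121 with DESeq2, 8 without a filter beyond 1 count, 0 on log2(TPM + 1), 2 on log2(TPM + 0.1) and 0 to 23 on leaving out single mice, the most without WT replicate 1. Directions turned with library totals for Per3 (−0.071), with length-scaled counts for Cry1 (0.010), on log2(TPM + 1) for Arntl (−0.094), Per3 (−0.086), Cry2 (−0.067) and Nr1d2 (−0.13), and on log2(TPM + 0.1) for the same genes (−0.10, −0.11, −0.074 and −0.15). The cause was not tested.

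Leaving out each mouse gave ranges of −0.11 to 0.42 for Arntl, 0.26 to 0.83 for Per1, 0.039 to 1.06 for Per2, −0.19 to 0.25 for Per3, −0.61 to 0.081 for Cry1, −0.083 to 0.96 for Nr1d1, −0.37 to 0.37 for Nr1d2 and −0.11 to 0.94 for Dbp. With the replicate block, 0 genes were called and Per3 was −0.20; it changed no call of a member. Deviations of same-numbered mice correlated at 0.0473 and 0.200 in 2 pairs, too few to show pairing, and no label gives same-numbered mice more than a number in common. With the prefix of the file names as a block, 0 genes were called; its meaning is not given. Within the first prefix (ATF4 BKO replicates 1 and 2, WT replicate 1) Per1 was −0.046, Per2 −0.36 and Per3 −0.39. Within the second, Cry1 was 0.59, Nr1d1 −0.91, Nr1d2 −0.41 and Dbp −0.22. Even for Clock, the steadiest member, the 95% interval ran from −0.39 to 0.19.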
